A study of Mus musculus with 11 samples.

Results

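Nyap2, Stxbp6, Kctd12, L1cam, Crmp1, Zfp536, Popdc3 and Dnah8 are 8 genes, most of them best known from nerve cells, that were picked because their counts differed between groups of lung innate lymphoid cells. They are 8 of the 57186 gene rows in the count table, and each was found there by its symbol. Because the difference between the lung groups chose them, that difference is described below without a test. The third cell population of the study comes from the thymus. The choice did not use its values, but it took genes with counts in the lung, so a lower level in the thymus was favoured, and a test is given there only for the 2 genes with enough counts in the thymus itself.

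Group 2 innate lymphoid cells (ILC2) are tissue lymphocytes without an antigen receptor that release type 2 cytokines. Lungs of untreated mice aged 14 days were the source of the sorted ILC2. The mice had the genotype Cd3giCreRosa26stopZsGreen, in which Cre made from Cd3g switches on the green fluorescent protein ZsGreen from the Rosa26 locus, so that ZsGreen marks cells that had Cre activity at the sort or earlier. Bulk RNA sequencing covered 5 libraries of ZsGreen-negative lung ILC2, 3 libraries of ZsGreen-positive lung ILC2 and 3 libraries of thymic DN3 cells, which are T cell precursors, from mice of that genotype and age. The lung libraries carry batch dates of 2 September 2024 (4 ZsGreen-negative, numbered 1 to 4, and ZsGreen-positive libraries 1 and 2) and of 8 April 2025 (the remaining library of each group). The DN3 libraries carry 17 October 2024. Tissue and batch date therefore cannot be told apart in a comparison with DN3. The labels do not tie libraries to animals. P-values therefore reflect how much single libraries varied, and that variation may be technical.

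In neurons, proteins of these kinds act in axon growth and in signalling at synapses. Nyap2 encodes an adaptor that links neuronal membrane signals to phosphoinositide 3-kinase (PI3K), Stxbp6 encodes amisyn, a syntaxin-binding protein that restrains vesicle release, and Kctd12 encodes an auxiliary subunit of GABA-B receptors. L1cam encodes an adhesion molecule of growing axons, Crmp1 a cytosolic mediator of semaphorin signals, and Zfp536 a zinc finger repressor of neuronal differentiation. The remaining genes are best known from elsewhere, Popdc3 as a cAMP-binding membrane protein of muscle and Dnah8 as a heavy chain of the dynein motor of sperm tails.

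Total counts lay between 4495260 and 14424313 in ZsGreen-negative, between 5762491 and 17627469 in ZsGreen-positive and between 5951494 and 7745062 in DN3 libraries. Levels are CPM, a gene's counts brought to a common library size by TMM scaling over the 11 libraries, on which a single count stood for 0.0597 to 0.244 CPM. Cd3g, the gene from which Cre is made, averaged 35.3 ± 4.34 CPM (SD, n = 5) in ZsGreen-negative, 152 ± 16.5 CPM (n = 3) in ZsGreen-positive and 421 ± 11.1 CPM (n = 3) in DN3 libraries. The 16 ILC2 markers summed to 15034 to 17943 CPM in the ZsGreen-negative and 14261 to 16908 CPM in the ZsGreen-positive libraries, against 3058 to 3197 CPM in DN3. By the edgeR test described below, 3 of the 16 were higher and 1 was lower in ZsGreen-positive ILC2. The shares of all genes were 2.35% and 2.18%. In ZsGreen-negative and ZsGreen-positive libraries Klrg1 averaged 128 and 285 CPM, Il13 640 and 1058.5, Thy1 617 and 769, and Icos 847 and 432. The 12 DN3 markers, which share Il2ra with the ILC2 list, summed to 1545 to 1700 CPM in ZsGreen-negative and 1341 to 1555 CPM in ZsGreen-positive libraries. In DN3 they summed to 8708 to 8847 CPM. No lung library held a count of Rag2 or Ptcra of this list, and Rag1 had 11 counts over the 8 lung libraries. Cd3e averaged 1.60 and 22.9 CPM and Hes1 155 and 89.5 CPM in ZsGreen-negative and ZsGreen-positive libraries, without overlap.

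The stretches before the start sites of 4 of the genes are shown because these genes stand for the patterns described below: Nyap2 and Stxbp6 were low in ZsGreen-positive cells, L1cam was high there, and Dnah8 was highest in DN3. Each is the 250 bases before a RefSeq start, 5′ to 3′ on the gene's own strand, from GRCm38.p6, a build other than the one the counts were made on. They lie at chr1:81076700-81076949 on the plus strand (Nyap2), chr12:45074484-45074733 on the minus strand (Stxbp6), chrX:73880791-73881040 on the minus strand (L1cam) and chr17:30626686-30626935 on the plus strand (Dnah8). Capitals mark the matches to the motifs searched.
Nyap2: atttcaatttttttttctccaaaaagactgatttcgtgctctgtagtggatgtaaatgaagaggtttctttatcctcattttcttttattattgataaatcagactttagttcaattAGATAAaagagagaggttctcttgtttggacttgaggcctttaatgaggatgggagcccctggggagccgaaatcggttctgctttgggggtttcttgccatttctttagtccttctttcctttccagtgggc
Stxbp6: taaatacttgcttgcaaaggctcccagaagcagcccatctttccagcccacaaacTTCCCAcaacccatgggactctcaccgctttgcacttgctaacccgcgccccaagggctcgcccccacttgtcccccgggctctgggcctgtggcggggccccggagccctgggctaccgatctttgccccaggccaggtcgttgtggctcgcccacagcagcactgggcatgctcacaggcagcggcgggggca
L1cam: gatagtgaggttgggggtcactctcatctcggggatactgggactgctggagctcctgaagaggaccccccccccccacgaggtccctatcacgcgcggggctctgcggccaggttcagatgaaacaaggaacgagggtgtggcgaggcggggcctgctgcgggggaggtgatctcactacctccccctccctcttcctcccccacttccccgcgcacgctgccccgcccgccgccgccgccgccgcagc
Dnah8: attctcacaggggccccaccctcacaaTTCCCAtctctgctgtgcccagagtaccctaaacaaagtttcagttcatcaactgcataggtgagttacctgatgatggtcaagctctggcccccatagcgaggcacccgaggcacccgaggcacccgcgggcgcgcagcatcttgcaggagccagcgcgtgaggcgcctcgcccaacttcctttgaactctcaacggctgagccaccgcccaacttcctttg

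RefSeq entries were matched for 7 of the 8 genes, all but Popdc3. The motifs searched, on both strands, were AGATAA for GATA factors, TGTGGT for RUNX factors, TGGGAA for RBPJ and CAGCACC, which is part of the element bound by REST, a repressor of neuronal genes. AGATAA stood before Nyap2 only, and 9.99% of 32851 promoters of this length hold it. TGGGAA, read on the other strand as TTCCCA, stood before Stxbp6 and Dnah8, and 21.6% of promoters hold it. TGTGGT and CAGCACC stood before none of the 7 genes, and 14.0% and 5.73% of promoters hold them. A match to these letters is a description and not a site of binding. GC content was 38.8% before Nyap2, 65.2% before Stxbp6, 69.6% before the L1cam start shown (63.2% before its other start, which overlaps it) and 59.2% before Dnah8, against a median of 52.4% over all promoters.

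In the lung, 3 of the 8 genes were lower and 5 were higher in ZsGreen-positive than in ZsGreen-negative ILC2. For all 8, no ZsGreen-positive library lay within the range of the ZsGreen-negative libraries, which was also so for 10.2% of the 13771 genes tested. At the edgeR quasi-likelihood test's threshold of 0.05 (Benjamini-Hochberg adjusted), 4.52% of all genes were called, 2.35% as higher and 2.18% as lower in ZsGreen-positive cells. Nothing is read from the 8 genes' own share, since they were chosen on this difference.

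The gene with the largest difference among the 8 was the adaptor gene Nyap2. Its level was 49.0, 37.4, 64.1, 49.5 and 42.0 CPM in ZsGreen-negative libraries 1 to 5 and 12.8, 9.24 and 8.95 CPM in ZsGreen-positive libraries 1 to 3. The lowest ZsGreen-negative library stood 2.93-fold above the highest ZsGreen-positive library. The means of 48.4 ± 10.1 CPM (SD, n = 5) and 10.3 ± 2.12 CPM (n = 3) differed 4.69-fold, and the log2 fold change was −2.18 ± 0.17 (SE).

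The amisyn gene Stxbp6 was the steadiest of the 8 among ZsGreen-negative libraries, with a coefficient of variation of 5.44%. It stood at 53.3, 59.1, 57.7, 62.1 and 58.1 CPM there and at 22.7, 17.9 and 21.1 CPM in the ZsGreen-positive libraries. The groups were 2.34-fold apart at their nearest libraries. The means of 58.1 ± 3.16 CPM (n = 5) and 20.6 ± 2.45 CPM (n = 3) differed 2.82-fold, with a log2 fold change of −1.49 ± 0.11.

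Kctd12, the GABA-B receptor subunit gene, was by far the most abundant of the 8, also per length: 223 CPM per kilobase of exon in ZsGreen-negative and 97.0 in ZsGreen-positive cells, where the other 7 lay between 0.709 and 11.4 in the lung groups. In the single libraries it stood at 1378, 1180.2, 1666, 1428 and 1102 CPM in ZsGreen-negative and at 639, 668 and 455 CPM in ZsGreen-positive ILC2. The nearest libraries of the groups were 1.65-fold apart. The means of 1351 ± 222 CPM (n = 5) and 587 ± 116 CPM (n = 3) differed 2.30-fold, with a log2 fold change of −1.15 ± 0.11. Kctd12 shares 3805 exon bases with the gene model Gm26778 on the opposite strand in GENCODE M21. Whether counting used the strand is not given in the sources used here, so reads of that model could stand in the Kctd12 count.

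Among the genes that were higher in ZsGreen-positive ILC2, the adhesion gene L1cam had 46.7, 36.3, 44.1, 38.7 and 45.4 CPM in the ZsGreen-negative and 67.8, 89.3 and 93.6 CPM in the ZsGreen-positive libraries. ZsGreen-positive library 1 was the nearest to the other group, 1.45-fold above its highest library. The means were 42.3 ± 4.49 CPM (n = 5) and 83.6 ± 13.8 CPM (n = 3), a 1.98-fold difference and a log2 fold change of 0.96 ± 0.11. L1cam shares 100 exon bases with Arhgap4 on the same strand, a gene at 204 and 216 CPM in the lung groups, so a few reads of either could be counted for the other.

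Crmp1, the semaphorin mediator gene, was measured at 15.0, 11.6, 8.77, 15.2 and 12.1 CPM in ZsGreen-negative and at 29.0, 29.9 and 46.2 CPM in ZsGreen-positive libraries. The highest value came from the 2025 library, and the groups were 1.903-fold apart at their nearest libraries. The means of 12.5 ± 2.67 CPM (n = 5) and 35.04 ± 9.67 CPM (n = 3) differed 2.79-fold, with a log2 fold change of 1.44 ± 0.17.

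Zfp536, the repressor gene, had 29.0, 22.7, 24.1, 21.0 and 32.2 CPM in ZsGreen-negative and 57.1, 47.3 and 49.8 CPM in ZsGreen-positive libraries, 1.47-fold apart at the nearest. Its means were 25.8 ± 4.65 CPM (n = 5) and 51.4 ± 5.07 CPM (n = 3), a 1.99-fold difference and a log2 fold change of 0.96 ± 0.13. The ZsGreen-negative library of 2025 was the highest of its group.

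The Popeye gene Popdc3 held the fewest counts of the 8, 323 over the 8 lung libraries, and had the widest spread, with coefficients of variation of 46.2% and 29.0%. It stood at 2.93, 4.83, 0.975, 2.81 and 3.62 CPM in ZsGreen-negative libraries, the lowest of which held 4 counts, and at 9.998, 6.10 and 6.39 CPM in ZsGreen-positive libraries. The nearest libraries were 1.26-fold apart, the narrowest gap of the 8 genes. The means of 3.03 ± 1.40 CPM (n = 5) and 7.49 ± 2.17 CPM (n = 3) differed 2.47-fold, with a log2 fold change of 1.25 ± 0.32.

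The dynein gene Dnah8 had 19.7, 16.6, 18.3, 15.7 and 24.7 CPM in ZsGreen-negative and 35.4, 42.1 and 44.4 CPM in ZsGreen-positive libraries, 1.43-fold apart at the nearest. The means were 19.0 ± 3.53 CPM (n = 5) and 40.6 ± 4.71 CPM (n = 3), which is 2.14-fold and a log2 fold change of 1.05 ± 0.12. Per kilobase of exon it was the lowest of the 8 in ZsGreen-negative cells, at 0.709 CPM. It shares 207 exon bases with the opposite-strand model 1700097N02Rik, which had 1.52, 3.75 and 6.23 CPM in ZsGreen-negative, ZsGreen-positive and DN3 libraries. In bulk RNA, more cells that carry a transcript and more transcript per cell cannot be told apart for any of these genes.

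**Figure D1:**
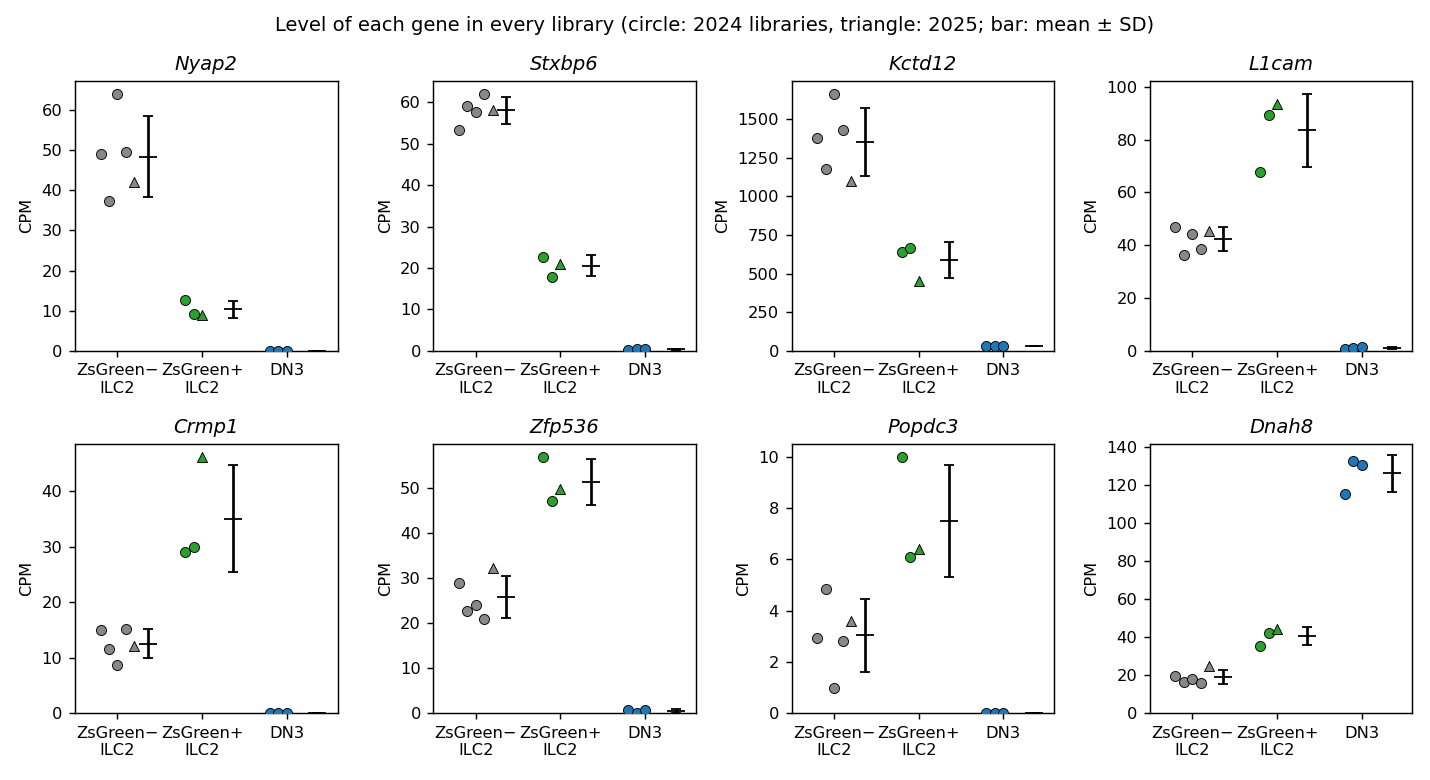
Level of each of the 8 genes in CPM (linear axis from 0, own scale per panel) in every library; points are libraries (triangles: the 2025 libraries), bars the mean ± SD of 5 ZsGreen-negative ILC2, 3 ZsGreen-positive ILC2 and 3 DN3 libraries. The first 3 genes step down from ZsGreen-negative to ZsGreen-positive to DN3, the next 4 peak in ZsGreen-positive cells, and Dnah8 is highest in DN3, at 115 to 132 CPM.

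Within the batch dates the 8 genes differed in the same directions. Both dates belong to the libraries on which the genes were chosen, so this was favoured in advance. Among the 2024 libraries (4 against 2), the log2 fold change was −2.16 ± 0.21 for Nyap2, −1.501 ± 0.14 for Stxbp6 and −1.11 ± 0.13 for Kctd12. It was 0.92 ± 0.13 for L1cam, 1.20 ± 0.19 for Crmp1, 1.11 ± 0.14 for Zfp536, 1.45 ± 0.39 for Popdc3 and 1.14 ± 0.15 for Dnah8. The 2025 date has a single library per group and so no error. There the difference was −2.23 for Nyap2, −1.46 for Stxbp6, −1.28 for Kctd12, 1.05 for L1cam, 1.93 for Crmp1, 0.63 for Zfp536, 0.82 for Popdc3 and 0.85 for Dnah8. Crmp1, Popdc3 and Zfp536 differed most between the dates, and Stxbp6 least.

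Markers of lung structural cells differed between the lung groups as well. The 14 epithelial markers summed to 312 to 896 CPM in ZsGreen-negative and 841 to 2234 CPM in ZsGreen-positive libraries. The 11 endothelial markers summed to 82.3 to 161 and 153 to 195 CPM, and the 11 mesenchymal markers to 116 to 518 and 392 to 898 CPM. Each list thus had higher sums in the ZsGreen-positive libraries, with ranges that overlapped. The median log2 fold change of the tested genes was 1.36, 1.26 and 1.13 for these lists, and edgeR called 1 of 14, 3 of 11 and 1 of 7 as higher. Other lists differed too: T and NK markers summed to 211 to 221 CPM in ZsGreen-negative and 242 to 302 CPM in ZsGreen-positive libraries (Cd3d and Cd3e called), mast cell and basophil markers to 139 to 238 and 91.7 to 131 CPM (Cpa3 called), and macrophage and dendritic cell markers to 59.9 to 165 and 117 to 256 CPM. Nearly all of the mast cell and basophil sum came from Cpa3 alone, at means of 209 and 111 CPM. The other markers of that list averaged at or below 0.369 CPM in each lung group. The part of these lists in the levels of the 8 genes was not tested.

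With the mean level of 32 such markers in each library as a term beside batch, all 8 genes had the same direction as before. This fit, too, used the libraries that chose the genes. The score ran from 2.77 to 4.09 in ZsGreen-negative and from 3.92 to 4.67 in ZsGreen-positive libraries. It thus partly followed the group, and the fit is no test of the part of these markers in the 8 genes' levels. The log2 fold change was then −2.40 ± 0.24 for Nyap2, −1.41 ± 0.18 for Stxbp6, −1.26 ± 0.16 for Kctd12 and 0.74 ± 0.18 for L1cam. It was 1.44 ± 0.31 for Crmp1, 1.08 ± 0.22 for Zfp536, 2.28 ± 0.52 for Popdc3 and 1.01 ± 0.22 for Dnah8. Popdc3 moved most, from 1.25 to 2.28, and L1cam fell from 0.96 to 0.74.

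**Figure D2:**
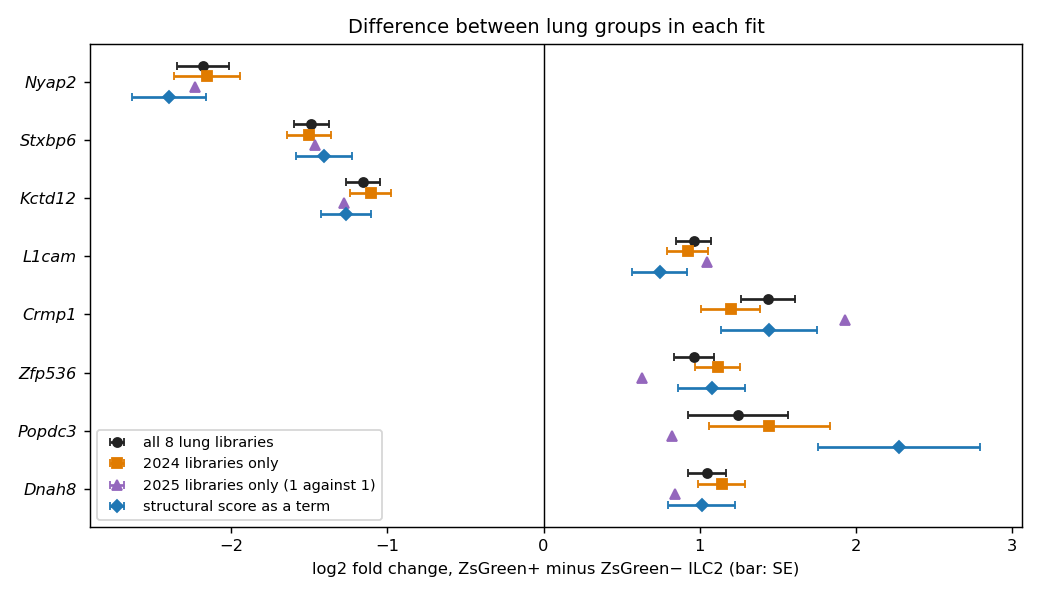
Log2 fold change of ZsGreen-positive over ZsGreen-negative ILC2 for the 8 genes with all 8 lung libraries, within the 2024 libraries, in the single pair of 2025 libraries and with the structural marker score as a term; bars are standard errors, and the 2025 pair has none. Each gene keeps its side of 0 in all 4 fits, and Popdc3 has the widest range, from 0.82 to 2.28.

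The cells for which most of these genes are known were checked by their own markers. Without Calca, which encodes the peptide CGRP and is made by ILC2 themselves, 15 neuronal and neuroendocrine markers summed to 3.25 to 7.80 CPM in ZsGreen-negative and 5.18 to 6.50 CPM in ZsGreen-positive libraries. The defining neuronal genes Snap25 and Rbfox3 had 0 counts in all 8 lung libraries. The highest of the 15 was Elavl4 in ZsGreen-negative libraries, at a mean of 1.15 CPM, and Stmn2 in ZsGreen-positive libraries, at 2.57 CPM. The sums overlapped between the lung groups, and in DN3 they reached 38.9 to 40.4 CPM, most of it from the tubulin gene Tubb3 (35.3 CPM). Calca had 1698 ± 324 CPM (n = 5) in ZsGreen-negative and 1166 ± 249.9 CPM (n = 3) in ZsGreen-positive libraries, which overlapped, with a log2 fold change of −0.49 ± 0.13 (edgeR adjusted p = 0.0455).

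Markers of other cells that these genes could mark were summed as well. The 9 glial markers summed to 8.05 to 10.7 CPM in ZsGreen-negative and 7.76 to 11.6 CPM in ZsGreen-positive libraries, with Sox10, Cdh19 and Kcna1 at 0 counts throughout the lung. For Dnah8, the 12 markers of ciliated cells summed to 7.94 to 17.5 and 12.5 to 29.0 CPM, with Mcidas at 0 counts. The other ciliated markers had higher means in ZsGreen-positive than in ZsGreen-negative libraries. Among them were Tppp3 at 9.76 against 5.51 CPM, with no overlap of libraries, and Ccdc153 at 1.42 against 0.0921 CPM, with overlap. The 3 ciliated markers that were tested had a median log2 fold change of 0.71, and none was called. For Popdc3, the 13 muscle and heart markers summed to 6.80 to 19.2 and 15.8 to 29.4 CPM, with Myh6 at 0 counts. The other members were split. Myh11 (2.23 and 6.35 CPM), Acta2 (5.00 and 10.2 CPM), Des, Actc1, Acta1, Ryr2 and Tnni1 had higher means in ZsGreen-positive libraries. Myl4 (1.88 and 1.18 CPM), Tnni3 (0.577 and 0.266 CPM), Tnnt2, Myl7 and Nppa had lower means there. The muscle sums exceeded the level of Popdc3 itself. The 3 tested members, Myh11, Acta2 and Myl4, had a median log2 fold change of 1.09 with none called. The part of the ciliated and muscle transcripts in the levels of Dnah8 and Popdc3 was not tested.

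**Figure D3:**
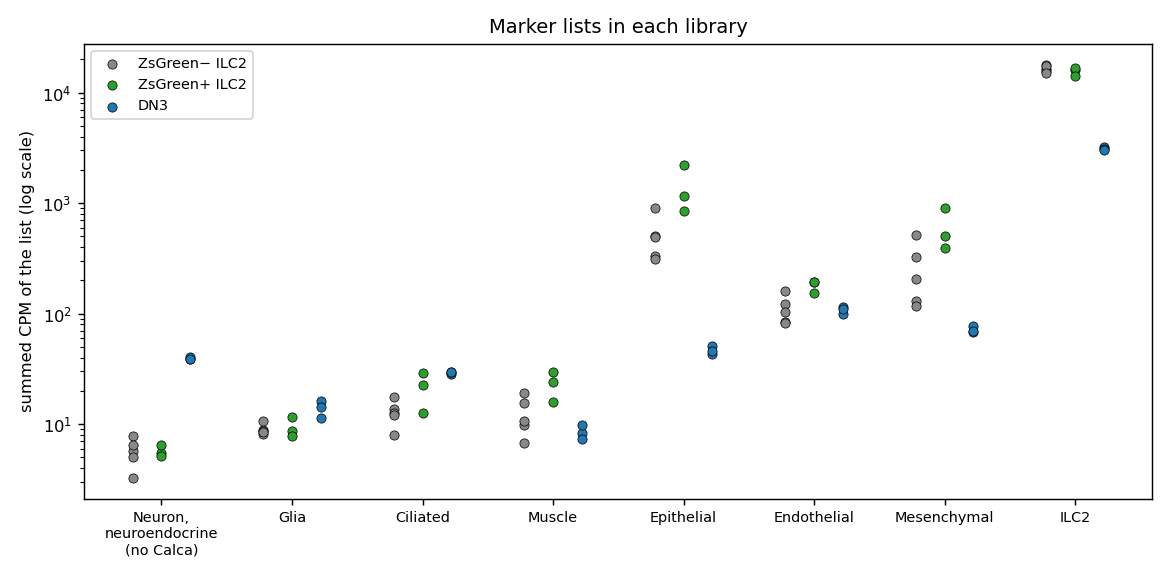
Summed CPM (log axis) of 8 marker lists in every library, neuronal and neuroendocrine markers without Calca; each point is a library of ZsGreen-negative ILC2, ZsGreen-positive ILC2 or DN3. Neuronal and glial sums overlap between the lung groups, while epithelial sums run from 312 to 896 CPM in ZsGreen-negative and from 841 to 2234 CPM in ZsGreen-positive libraries.

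Thymic DN3 cells were compared with all 8 lung libraries, with the lung groups weighted by their number of libraries. Only Kctd12 and Dnah8 had 10 or more counts in every DN3 library. The other 6 genes passed the filter on low counts through the lung libraries, where they were chosen, so their DN3 levels are given as a description with no test. DN3 levels of 7 genes lay below, and those of Dnah8 above, every lung library. The background was high: of 15132 genes tested, 78.8% were called, 36.7% as higher and 42.1% as lower in DN3, and 69.3% did not overlap. A call in either direction was thus what most genes gave in this comparison.

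Nyap2, Crmp1 and Popdc3 had 0 counts in each DN3 library. The 3 libraries together allow up to 3 counts for each gene, or 0.120 CPM, by counting error alone. Against that limit Nyap2, at 34.1 ± 21.2 CPM over the lung libraries (SD, n = 8), was at least 284-fold lower in DN3. Crmp1, at 21.0 ± 12.9 CPM in the lung, was at least 175-fold lower. Popdc3, at 4.71 ± 2.79 CPM, was at least 39.1-fold lower. These transcripts were thus not detectable in DN3 at this depth, while each lung library held at least 50 counts of Nyap2, 36 of Crmp1 and 4 of Popdc3.

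Stxbp6, Zfp536 and L1cam were detected in DN3 at the edge of the depth. Stxbp6 had 2, 3 and 3 counts in DN3 libraries 1 to 3, or 0.282, 0.323 and 0.351 CPM. It was 138-fold lower than in the lung, with a log2 fold change of −6.88 ± 0.21. Zfp536 had 0.846, 0 and 0.818 CPM, 13 counts in all, and was 63.9-fold lower, with a log2 fold change of −5.97 ± 0.32. L1cam had 0.705, 1.18 and 1.29 CPM, 27 counts in all, and was 54.6-fold lower at −5.64 ± 0.20 on the log2 scale. All of these values lay below every lung library.

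Kctd12 was the gene of the 7 lower ones that DN3 cells held in quantity. Its DN3 levels of 32.8, 32.04 and 32.3 CPM were almost the same, with a mean of 32.4 ± 0.420 CPM (n = 3). Against the lung mean of 1065 ± 434 CPM (n = 8) this was 32.9-fold lower, with a log2 fold change of −4.93 ± 0.17 (edgeR adjusted p = 9.95e-16). Per kilobase of exon the DN3 level was 5.35 CPM.

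Dnah8 alone of the 8 was higher in the thymus. It had 115, 132 and 131 CPM in DN3 libraries 1 to 3, a mean of 126 ± 9.56 CPM (n = 3), against 27.1 ± 11.8 CPM in the lung (n = 8). The difference was 4.64-fold, with a log2 fold change of 2.30 ± 0.10 (edgeR adjusted p = 4.53e-15). Side by side, DN3 stood 6.62-fold above the ZsGreen-negative and 3.10-fold above the ZsGreen-positive mean. Cd3g had the same order across the 3 groups. Dnah8 was chosen for its lung difference, and 36.7% of all genes were called higher in DN3, so no link is read from this. Per kilobase of exon, 4.69 CPM in DN3 compares with 0.709 and 1.52 CPM in the lung groups. The 12 ciliated markers summed to 28.6 to 29.7 CPM in DN3, with Sntn, Dynlrb2 and Dnah5 at 0 counts there. The others of this list were split. Ccdc40 (13.4 against 0.850 CPM), Ccdc39 (9.09 against 3.39 CPM), Ccdc153 (2.71 against 0.592 CPM) and Mcidas (0.150 against 0 CPM) were higher in DN3 than in the lung. Tppp3 (1.64 against 7.10 CPM), Foxj1 (0.526 against 1.20 CPM), Rsph1 (1.37 against 1.49 CPM), Dnah9 (0.282 against 0.372 CPM) and Rsph4a (0.039 against 0.157 CPM) were lower. The part of these transcripts in the Dnah8 level was not tested.

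The 8 genes therefore fell into 3 orders over the groups. Nyap2, Stxbp6 and Kctd12 went from ZsGreen-negative down to ZsGreen-positive and on to DN3. L1cam, Crmp1, Zfp536 and Popdc3 were highest in ZsGreen-positive ILC2 and lowest in DN3. Dnah8 went from DN3 down to ZsGreen-positive and then to ZsGreen-negative ILC2. No neighbouring groups in these orders overlapped in any of the 8 genes.

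Of the closest relatives of the 8 genes, Bves alone was called between the lung groups. Nyap1, the sister adaptor of Nyap2, stood at 2.26 ± 0.545 CPM (n = 5) and 2.78 ± 0.594 CPM (n = 3) in the lung groups, which overlapped, and rose in DN3 to 25.7 ± 1.48 CPM (n = 3), with a log2 fold change of 3.32 ± 0.17 (edgeR adjusted p = 3.44e-14). Nyap2 was thus detected in lung libraries alone, and Nyap1 was higher in the thymus. The third member of that family, Myo16, lay at 0.155, 0.0995 and 0 CPM in ZsGreen-negative, ZsGreen-positive and DN3 libraries.

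The syntaxin-binding genes Stxbp2 to Stxbp5 were expressed in all groups and none was called between the lung groups. Stxbp2 had 150 and 149 CPM in ZsGreen-negative and ZsGreen-positive ILC2, and Stxbp3 had 45.8 and 46.2 CPM. Stxbp4 had 9.80 and 9.75 CPM, Stxbp5 had 96.4 and 99.55 CPM, and Stxbp5l had 0 counts in every library. Their log2 fold changes lay between −0.01 (Stxbp2) and 0.06 (Stxbp5), with edgeR adjusted p from 0.836 to 0.979.

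Of the other auxiliary subunits of the GABA-B receptor, Kctd8 and Kctd16 lay at or below 0.308 CPM in each group, and Kctd12b at 1.81, 1.56 and 0.974 CPM in ZsGreen-negative, ZsGreen-positive and DN3 libraries. Gabbr1 and Gabbr2, named here after their values were seen, encode the receptor itself. Gabbr1 had 377 ± 65.2 CPM (n = 5) and 405 ± 61.1 CPM (n = 3) in the lung groups, which overlapped, and 22.5 ± 1.87 CPM (n = 3) in DN3, with a log2 fold change against all lung of −4.11 ± 0.16 (edgeR adjusted p = 3.68e-14). Gabbr2, the partner that carries the receptor to the surface in neurons, lay at 0.270, 0.449 and 0 CPM and did not pass the filter on low counts. So Kctd12 and Gabbr1 were both lower in DN3 than in lung ILC2, and Gabbr1 did not pass the test between the lung groups (edgeR adjusted p = 0.848).

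Of the L1 family, Chl1 and Nfasc had 0 counts in all 11 libraries and Nrcam lay at 0.678, 0.401 and 0 CPM, which leaves L1cam as the member of the family found in quantity in these cells. Of the Crmp1 family, Dpysl2 had 46.9 ± 6.84 CPM (n = 5) and 51.8 ± 1.31 CPM (n = 3) in the lung groups and 17.8 ± 0.825 CPM (n = 3) in DN3. Dpysl3 had 12.8 ± 1.58 CPM (n = 5), 19.7 ± 5.19 CPM (n = 3) and 0.0748 ± 0.0649 CPM (n = 3). Its lung groups overlapped and differed by 0.60 ± 0.17 on the log2 scale (edgeR adjusted p = 0.0583). Dpysl4 and Dpysl5 lay at or below 0.279 CPM.

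Zfp516, a zinc finger gene related to Zfp536, had 99.8 ± 9.23 CPM (n = 5) and 83.6 ± 3.07 CPM (n = 3) in the lung groups, a log2 fold change of −0.27 ± 0.09 that did not pass the threshold (edgeR adjusted p = 0.106). In DN3 it fell to 5.17 ± 0.286 CPM (n = 3), with a log2 fold change of −4.17 ± 0.12 (edgeR adjusted p = 1.62e-18). Of the other axonemal dynein heavy chains, Dnah11, Dnah12, Dnah14 and Dnah17 were measured in enough libraries to be tested in the lung, and none was called. Dnah17, at 5.36 and 5.43 CPM in ZsGreen-negative and ZsGreen-positive ILC2, rose in DN3 to 12.03 ± 1.11 CPM (n = 3, log2 fold change 1.18 ± 0.21, edgeR adjusted p = 2.60e-05). Dnah12 went the other way, from 5.66 and 4.53 CPM to 0.995 CPM (log2 fold change −2.32 ± 0.36). Dnah1 had 0.279, 0.553 and 2.57 CPM. Dnah12 was low in DN3 and Dnah1 in the lung, and each passed the filter through the tissue where it is high. Both are therefore given as a description with no test. Each other axonemal heavy chain in the list lay at or below 1.88 CPM in every group, too low for a test in the lung. Some of these had higher means in ZsGreen-positive than in ZsGreen-negative ILC2: Dnah2 at 1.498 against 0.0985 CPM (43 and 4 counts in all, with no overlap of libraries), Dnah6 at 1.79 against 0.254 CPM, Dnah10 at 1.88 against 0.494 CPM and Dnah3 at 0.541 against 0.0782 CPM, the last 3 with overlap.

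Bves, the founding Popeye gene, is the neighbour of Popdc3 in the order of RefSeq genes. It rose from 2.94 ± 1.14 CPM (n = 5) in ZsGreen-negative to 8.31 ± 0.585 CPM (n = 3) in ZsGreen-positive ILC2, with a log2 fold change of 1.52 ± 0.28 (edgeR adjusted p = 0.00285). The libraries did not overlap. In DN3 it had 0 counts, at least 41.2-fold lower than in the lung. The adjusted p of the lung difference ranged from 6.91e-06 to 0.186 over 19 alternatives, and the highest came with the structural marker score as a term, where the log2 fold change was 1.70 ± 0.48. Prep, on the other side of Popdc3, did not follow, with 58.6 ± 3.08 CPM (n = 5) and 60.4 ± 3.30 CPM (n = 3) in the lung groups (edgeR adjusted p = 0.836) and 103 ± 1.80 CPM (n = 3) in DN3. Popdc2, the third Popeye gene, lay at or below 0.299 CPM in each group.

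Beyond single relatives, 8 lists of partners and family members were drawn up, with 260 genes in all and the 8 genes left out. Of these, 184 were tested between the lung groups, where 9 rose and 2 fell in ZsGreen-positive ILC2, or 5.98% against 4.52% of all genes tested. Their median log2 fold change was 0.04, against 0.00 over all genes. The share called was thus close to that of all genes, and 173 of the 184 genes did not pass the test. The 9 higher calls became 5, 4 and 5 with ZsGreen-negative library 5, ZsGreen-positive library 2 or ZsGreen-positive library 3 left out, and the 2 lower calls became 0 in each of these cases.

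The PI3K and WAVE list around Nyap2 had 0 of 18 genes called, with 1 at an unadjusted p under 0.05 by edgeR, and its median was −0.04. The KCTD and GABA-B list around Kctd12 likewise had 0 of 19, with 1 at an unadjusted p under 0.05, and a median of 0.10. The dynein list around Dnah8 had 0 of 20, with 1 at an unadjusted p under 0.05, and a median of 0.00. DESeq2 and limma voom also gave 0 calls in each of these lists. The dynein list had 2 calls without ZsGreen-positive library 1.

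Around Stxbp6, 2 of 40 genes of the vesicle release (SNARE) machinery rose and none fell, with a median of 0.03. Syt11, a synaptotagmin, rose from 7.76 ± 2.06 CPM (n = 5) to 17.1 ± 2.95 CPM (n = 3), by 1.18 ± 0.21 on the log2 scale (edgeR adjusted p = 0.00236, with a range of 1.95e-07 to 0.163 over the alternatives). Sytl2, a synaptotagmin-like effector of Rab27 on secretory granules, rose from 71.2 ± 7.74 CPM to 100.9 ± 8.36 CPM, by 0.50 ± 0.10 (edgeR adjusted p = 0.00535, range 6.28e-05 to 0.438). Without ZsGreen-positive library 2 the adjusted p of Sytl2 was 0.0553. These genes went up where Stxbp6 went down.

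The semaphorin list around Crmp1 had 3 of 31 genes higher and none lower, the highest median of the 8 lists at 0.24, and 14 genes at an unadjusted p under 0.05 by edgeR. These are 9.68% called and 45.2% at the unadjusted level, against 4.52% and 16.8% of all genes tested. The cAMP list around Popdc3 had 13.6% called and 40.9% at the unadjusted level, and the adhesion list around L1cam 14.3% and 21.4%. The other lists had at most 5.0% called and at most 15.0% at the unadjusted level. Sema4f, a transmembrane semaphorin, rose from 29.1 ± 4.35 CPM (n = 5) to 45.9 ± 5.60 CPM (n = 3), by 0.63 ± 0.12 on the log2 scale (edgeR adjusted p = 0.00338, range 4.56e-05 to 0.343). Sema3g rose from 1.70 ± 0.439 CPM to 5.35 ± 1.65 CPM, by 1.65 ± 0.32 (edgeR adjusted p = 0.00482, range 0.000186 to 0.456), and Sema3f from 2.96 ± 0.621 CPM to 7.31 ± 2.51 CPM, by 1.27 ± 0.27 (edgeR adjusted p = 0.00939, range 0.000877 to 0.896). Both encode secreted semaphorins. The adjusted p of Sema3g was 0.0553 without ZsGreen-positive library 2, and that of Sema3f was 0.136 with ZsGreen-negative library 5 left out and 0.170 with ZsGreen-positive library 3 left out.

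In the adhesion list around L1cam, 1 of 14 genes rose and 1 fell. Alcam, an immunoglobulin adhesion molecule, went from 11.6 ± 3.50 CPM (n = 5) to 20.0 ± 0.987 CPM (n = 3), by 0.87 ± 0.19 on the log2 scale (edgeR adjusted p = 0.0121, range 5.10e-05 to 0.963). Leaving out ZsGreen-negative library 5, ZsGreen-positive library 2 or ZsGreen-positive library 3 gave an adjusted p of 0.117, 0.0565 and 0.119. Itgb3, an integrin subunit that can bind L1cam, went from 599 ± 34.4 CPM to 473 ± 17.4 CPM, by −0.34 ± 0.09 (edgeR adjusted p = 0.0284, range 0.000815 to 0.297). Leaving out any one of ZsGreen-negative libraries 1 and 5 or the 3 ZsGreen-positive libraries ended this call, with an adjusted p of 0.0583 to 0.149.

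The remaining calls were the corepressor Ctbp2 in the list around Zfp536 (1 of 20 genes higher, none lower, median −0.02) and, in the cAMP list around Popdc3 (2 of 22 higher, 1 lower, median 0.09), the adenylate cyclase Adcy7 and the phosphodiesterase Pde7b beside Bves. Ctbp2 went from 5.22 ± 0.953 CPM (n = 5) to 9.10 ± 0.535 CPM (n = 3), by 0.83 ± 0.21 on the log2 scale (edgeR adjusted p = 0.0298, range 0.0132 to 0.804). Adcy7 went from 447 ± 35.3 CPM to 556 ± 26.6 CPM, by 0.31 ± 0.09 (edgeR adjusted p = 0.0476, range 0.0119 to 0.725), and Pde7b from 103 ± 9.04 CPM to 76.3 ± 18.8 CPM, by −0.42 ± 0.11 (edgeR adjusted p = 0.0364, range 0.000945 to 0.906). These calls lay near the threshold and depended on which libraries were included. With each library left out in turn, the log2 fold change was 0.26 to 0.38 for Adcy7, 0.78 to 0.92 for Ctbp2 and −0.54 to −0.26 for Pde7b. The Adcy7 call ended without any 1 of the 8 libraries (adjusted p 0.0559 to 0.267), the Ctbp2 call without any of ZsGreen-negative libraries 2, 4 and 5 or the 3 ZsGreen-positive libraries (0.0551 to 0.164), and the Pde7b call without any of ZsGreen-negative libraries 2 and 5 or ZsGreen-positive libraries 2 and 3 (0.0659 to 0.312).

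With the structural marker score as a term, none of these 11 relatives was called by edgeR, with adjusted p from 0.163 to 0.963, and all 11 had the same sign. The log2 fold change was then 1.70 for Bves, 1.32 for Syt11, 1.46 for Sema3g, 0.61 for Sema4f, 0.45 for Sytl2, −0.44 for Itgb3, 0.29 for Adcy7 and 0.63 for Ctbp2. Standard errors were larger with the term, 0.48 for Bves and 0.36 for Syt11. Alcam (0.26), Sema3f (0.60) and Pde7b (−0.24) had the smallest values relative to those without the term. Over all genes the same term left 13 higher and 34 lower calls, against 323 and 300 without it.

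**Figure D4:**
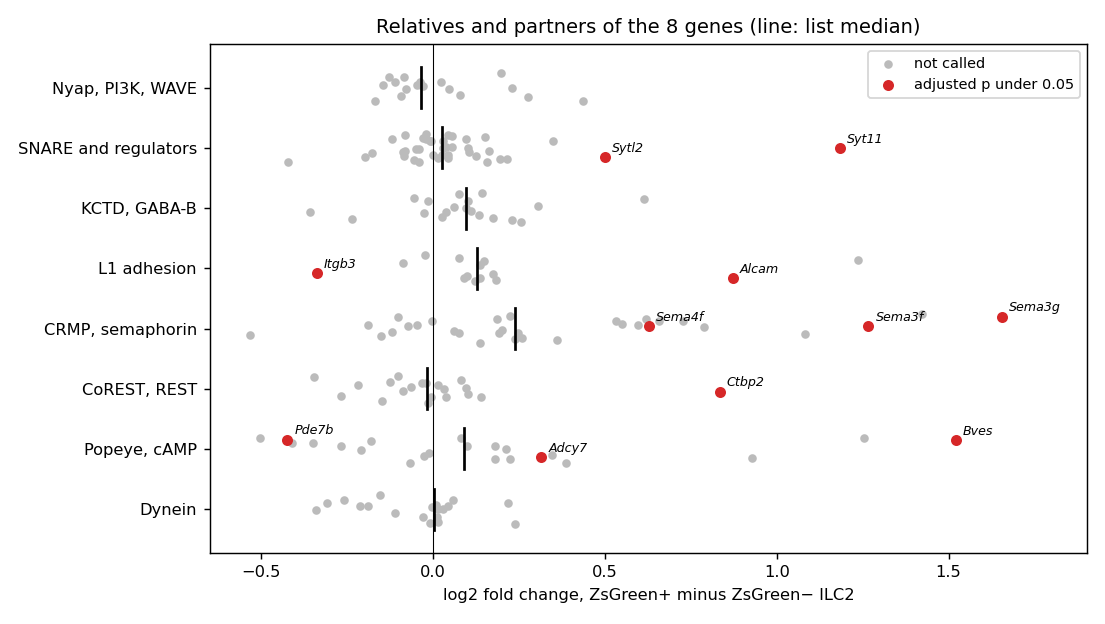
Log2 fold change between the lung groups for each tested gene of the 8 lists of relatives and partners; red points are the 11 genes past the edgeR threshold, grey points the others, and black lines the list medians. Medians lie between −0.04 and 0.24, and the called genes on the right include Sema3g, Bves, Sema3f and Syt11.

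Between thymus and lung, 191 genes of the lists were tested, of which 49 rose and 109 fell in DN3, or 82.7% against 78.8% of all genes. The median was −0.49, against −0.09 over all genes. The semaphorin list around Crmp1 had the lowest median, −2.37, with 27 of 33 genes lower and 4 higher. The dynein list around Dnah8 had the highest, 0.55, with 11 of 21 higher and 6 lower. Over all genes 36.7% were higher and 42.1% lower. The cAMP list around Popdc3 had 17 of 23 lower and 4 higher (median −0.96), the SNARE list 26 of 42 lower and 6 higher (median −0.50), and the adhesion list 9 of 14 lower and 4 higher (median −0.49). The PI3K and WAVE list had 10 of 18 lower and 3 higher (median −0.38), the KCTD list 7 of 20 lower and 8 higher (median −0.16), and the corepressor list 7 of 20 lower and 9 higher (median 0.08). With library totals in place of TMM, the medians of all genes in this comparison moved up by 0.37 and the lists' calls became 74 higher and 90 lower.

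The genes whose levels ran most closely with each of the 8 over the 8 lung libraries were found by Pearson's r of log2(CPM + 1), given as a description. Since the libraries form 2 groups and the 8 genes were chosen for differing between them, a high r is what any gene with such a difference would give. For Nyap2 these were Josd1 (r = 0.991) and Serpinb2 (0.990), for Stxbp6 Gpn3 and Fam20a (both 0.989), and for Kctd12 Zdbf2 (0.993) and Klhl24 (0.992). For L1cam they were Cald1 (0.991) and Actr5 (0.982), for Crmp1 Adam8 (0.986) and Septin9 (0.981), and for Zfp536 Ppp3cc (0.973) and the semaphorin gene Sema5a (0.971). For Popdc3 they were Ptpn21 (0.979) and Asb1 (0.972), and for Dnah8 the interleukin 10 receptor gene Il10ra (0.984) and Arap3 (0.981). Among the 8 genes themselves, r was 0.914 to 0.972 between the 3 lower ones and 0.614 (L1cam and Popdc3) to 0.973 (L1cam and Dnah8) between the 5 higher ones.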

How the data were processed

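Per the labels' protocols, RNA of sorted cells was isolated with a PicoPure kit and libraries were made with an mRNA kit of Watchmaker Genomics. The authors deposited whole-number counts per gene in a table of 8 lung libraries and a table of all 11, and the lung columns were identical in both (0 differing). Build GRCm39 and DESeq2 are named, per the submitters' processing notes. Aligner, counter, annotation and strand setting were not given in the sources used here. The main test was edgeR's quasi-likelihood F test (edgeR 4.0.16, R 4.3.3, TMM, robust dispersions, filterByExpr with a minimum count of 10, Benjamini-Hochberg adjustment over all genes tested, threshold 0.05). A fit of the 8 lung libraries included batch (13771 genes), and a fit of all 11 libraries for DN3 did not (15132 genes). All 8 genes passed both filters, 6 of them in the DN3 fit through lung libraries alone. The scripts were checked on simulated counts. Limits and intervals cover counting error only. Alternatives were other scalings and filters, DESeq2 1.42.0, limma 3.58.1 voom, batch terms, a structural marker score (mean log2(CPM + 1) of epithelial, endothelial and mesenchymal markers), and leaving out each library. No replicate pair agreed within sampling noise, with chi-square per degree of freedom of 1.77 or more.

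The genes, lists and rules were chosen with earlier results of these data known. The genes named are the 8, their nearest relatives, up to 3 genes of smallest p per list that were called between the lung groups at 5 CPM or more in the higher group, and the 2 genes of highest correlation with each of the 8. A gene that this rule takes is not reported here. Exon lengths and overlaps are from GENCODE M21 on GRCm38, and sequences and gene order from RefSeq on GRCm38.p6.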

Additional observations from a re-analysis of the deposited data

How the results depend on the processing

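All 8 genes had the same direction in the lung in each of the 160 values recomputed, of which 4 moved by more than the spread between replicates: L1cam (0.74) and Popdc3 (2.28) with the structural score, and Crmp1 (1.93) and Zfp536 (0.63) in the 2025 libraries alone. Since the genes were chosen on this difference in the same libraries, a kept direction was favoured in advance. Against DN3 the 176 values had the same direction; for Kctd12 and Dnah8, the genes tested there, the highest adjusted p was 1.74e-12 and 8.74e-13. The count of related genes higher in ZsGreen-positive cells (9) was 19 with no filter, 5 in the 2024 libraries alone, 0 with the structural score and 4 to 11 when each library was left out in turn. That of lower genes (2) was 1 with library totals only, 5 with limma voom, 6 with no filter, 1 with no batch term, 0 in the 2024 libraries alone, 0 with the structural score and 0 to 4 when each library was left out. Related genes higher in DN3 numbered 74 with library totals only, against 49. Over all genes, the 323 higher and 300 lower lung calls became 130 and 103 with the replicate block, 612 and 416 with limma voom, 621 and 460 with no filter, and 146 and 140, 149 and 172, and 148 and 154 without ZsGreen-negative library 5, ZsGreen-positive library 2 and ZsGreen-positive library 3. In DN3, 59.8% of calls were higher with library totals only, against 46.5%. The causes were not tested.

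The labels do not say whether replicate numbers pair the libraries. Same-numbered lung libraries 1 to 3 correlated at 0.0781, −0.138 and −0.0484 in their deviations from the group means. The highest correlations with another number were 0.0146, 0.165 and 0.195. These values cannot decide on pairing, and number 3 joins libraries of different batch dates. With the replicate block, 2 related genes were higher and 0 lower in ZsGreen-positive cells. The lowest counts, 0 to 8 over the DN3 libraries for Nyap2, Crmp1, Popdc3 and Stxbp6, limit how large a difference can be shown there.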
